A study of Mus musculus with 6 samples.

Results

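The CC chemokine genes of mouse chromosome 11 were examined in ATAC-seq peak lists of bone marrow macrophages from young and old mice. The 10 genes Ccl2, Ccl7, Ccl11, Ccl12, Ccl8, Ccl5, Ccl9, Ccl6, Ccl3 and Ccl4, of 21627 protein-coding genes on the autosomes and X, were taken by name with their RefSeq spans in mm10 and 10 kb on each side. These stretches merged into 5 windows, which held 302 of the 1410944 peaks in the 6 deposited lists. All 6 libraries came from BALB/c mice of genotype WT and from marrow-derived macrophages positive for F4/80 and CD169. The 3 young libraries came from mice of 3 weeks and the 3 old libraries from mice of more than 78 weeks, with 50000 cells in each library. The series title ties ageing of the marrow niche to B-cell acute lymphoblastic leukemia by way of CXCR5 and CXCL13. The labels do not say that libraries of 1 age came from separate mice or cultures, so the p-values measure only the spread between libraries, which may be technical.

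CC chemokines are small secreted proteins with a pair of adjacent cysteines near the amino terminus. They signal through G protein-coupled receptors of the CCR family and steer monocytes, T cells, eosinophils and other leukocytes. In the mouse, many of their genes lie in tandem groups that arose by duplication, and macrophages induce several of them within hours of an inflammatory signal. ATAC-seq uses the Tn5 transposase to insert adapters into accessible DNA, and a peak is a stretch where insertions exceed the local background. Peaks report open chromatin and not transcription, so no chemokine mRNA or protein was measured here.

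The first group on the chromosome held Ccl2, Ccl7 and Ccl11 in a window at chr11:82025577-82072955, and Ccl12 and Ccl8 in a window at chr11:82091845-82126799. The second group held Ccl5 at chr11:83515778-83540518, Ccl9 and Ccl6 at chr11:83562917-83603087, and Ccl3 and Ccl4 at chr11:83637843-83674683. The windows also touched the protein-coding gene Heatr9, the long non-coding RNA genes Gm38913, Gm32650, E230016K23Rik, Gm38933 and Gm51868, the small nuclear RNA gene Gm23247, and the pseudogenes Ccl16-ps and Rpl9-ps1. The RefSeq span of Ccl4 includes a predicted transcript and overlaps the span of Ccl3, so peaks there count for both genes.

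Promoter sequences are shown for the genes whose starts could be placed against the peaks. The RefSeq promoter table of GRCm38.p6 matched 5 of the 10 genes, and Ccl2, Ccl7, Ccl11, Ccl4 and Ccl5 are named only. The sequences are the 250 bases before the annotated start, 5′ to 3′ on the gene's strand, and come from the C57BL/6J reference, not from the BALB/c cells. Capitals mark matches, on either strand, to AP-1 (TGANTCA), C/EBP (TTNNGNAA), PU.1 (GAGGAA), the TATA box (TATAAA), the interferon-stimulated response element or the kappa B consensus.
Ccl12: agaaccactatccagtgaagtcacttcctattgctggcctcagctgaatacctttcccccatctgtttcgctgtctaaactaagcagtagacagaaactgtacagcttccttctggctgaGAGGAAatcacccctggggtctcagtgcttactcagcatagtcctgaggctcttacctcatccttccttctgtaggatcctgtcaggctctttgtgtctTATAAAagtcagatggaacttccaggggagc
Ccl3: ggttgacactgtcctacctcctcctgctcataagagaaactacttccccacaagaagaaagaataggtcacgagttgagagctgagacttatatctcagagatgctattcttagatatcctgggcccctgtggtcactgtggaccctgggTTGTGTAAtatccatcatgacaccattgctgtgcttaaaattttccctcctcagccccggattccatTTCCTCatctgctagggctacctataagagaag
Ccl6: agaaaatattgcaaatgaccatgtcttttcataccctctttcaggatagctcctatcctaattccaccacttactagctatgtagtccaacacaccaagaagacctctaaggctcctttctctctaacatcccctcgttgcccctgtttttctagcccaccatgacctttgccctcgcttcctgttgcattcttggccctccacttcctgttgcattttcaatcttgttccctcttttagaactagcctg
Ccl9: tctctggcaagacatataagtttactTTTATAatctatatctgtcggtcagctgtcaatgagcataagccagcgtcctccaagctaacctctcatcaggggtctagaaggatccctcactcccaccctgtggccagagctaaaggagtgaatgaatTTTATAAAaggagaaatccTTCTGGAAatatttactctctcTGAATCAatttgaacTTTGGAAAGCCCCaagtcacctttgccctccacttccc
Ccl8: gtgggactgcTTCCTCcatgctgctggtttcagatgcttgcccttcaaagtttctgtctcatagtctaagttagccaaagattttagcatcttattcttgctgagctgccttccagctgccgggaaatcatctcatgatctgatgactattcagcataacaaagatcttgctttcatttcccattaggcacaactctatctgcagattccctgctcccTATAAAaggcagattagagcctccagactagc
The Ccl12 sequence (chr11:82101595-82101844, plus strand) had a PU.1 match that began 130 bases before the start and a TATA box match that began 31 bases before it. Peaks covered 250 of its 250 bases in all 6 libraries. The Ccl3 sequence (chr11:83649379-83649628, minus strand) had a C/EBP match at 100 bases and a PU.1 match at 33 bases before the start, and was covered over 250 bases in all 6 libraries. The Ccl6 sequence (chr11:83593088-83593337, minus strand) held none of these motifs. Its covered part measured 65, 90 and 95 bp in the young libraries 1 to 3 and 65, 72 and 77 bp in the old libraries 1 to 3. The Ccl9 sequence (chr11:83578637-83578886, minus strand) held 7 matches, the most of the 5, among them AP-1 at 53 bases and kappa B at 35 bases, the latter overlapping a C/EBP match. Only 10 to 17 of its bases lay in peaks, and the Ccl9 peak lay mostly on the transcribed side of the start. The Ccl8 sequence (chr11:82114935-82115184, plus strand) had a PU.1 match at 240 bases and a TATA box match at 32 bases, and 0 of its bases lay in a peak of any library. The covered and uncovered promoters thus shared motifs. Among all 32851 promoters of the table, cut to the same 250 bases, PU.1 matched 23.3%, C/EBP 36.8%, the TATA box 12.4%, kappa B 7.25%, AP-1 6.75% and the interferon-stimulated response element 2.98%. A match is a string of letters and not a measured binding site.

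The lists held 215947 to 254410 peaks each and covered 48.2 to 66.1 Mb, with the smallest covered lengths in old libraries 2 and 3. Within the windows, the young libraries had 55, 48 and 52 peaks and the old libraries had 54, 43 and 50. These numbers overlapped between the ages (51.7 ± 3.51 against 49.0 ± 5.57, mean ± SD, n = 3 each; two-sided exact permutation p = 0.6, where the smallest p that 3 against 3 allows is 0.1). No read counts were used here and the depth is unknown, so an uncalled peak is not evidence of closed chromatin. Each peak carries the authors' fold enrichment and −log10 q, which describe that peak within its own list. A peak's rank is its place when the peaks of a library are ordered by −log10 q. The share of peaks that ranked in the strongest 50000 was 35.2% to 51.2% in the windows and 19.7% to 23.2% in the whole lists.

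**Figure D1:**
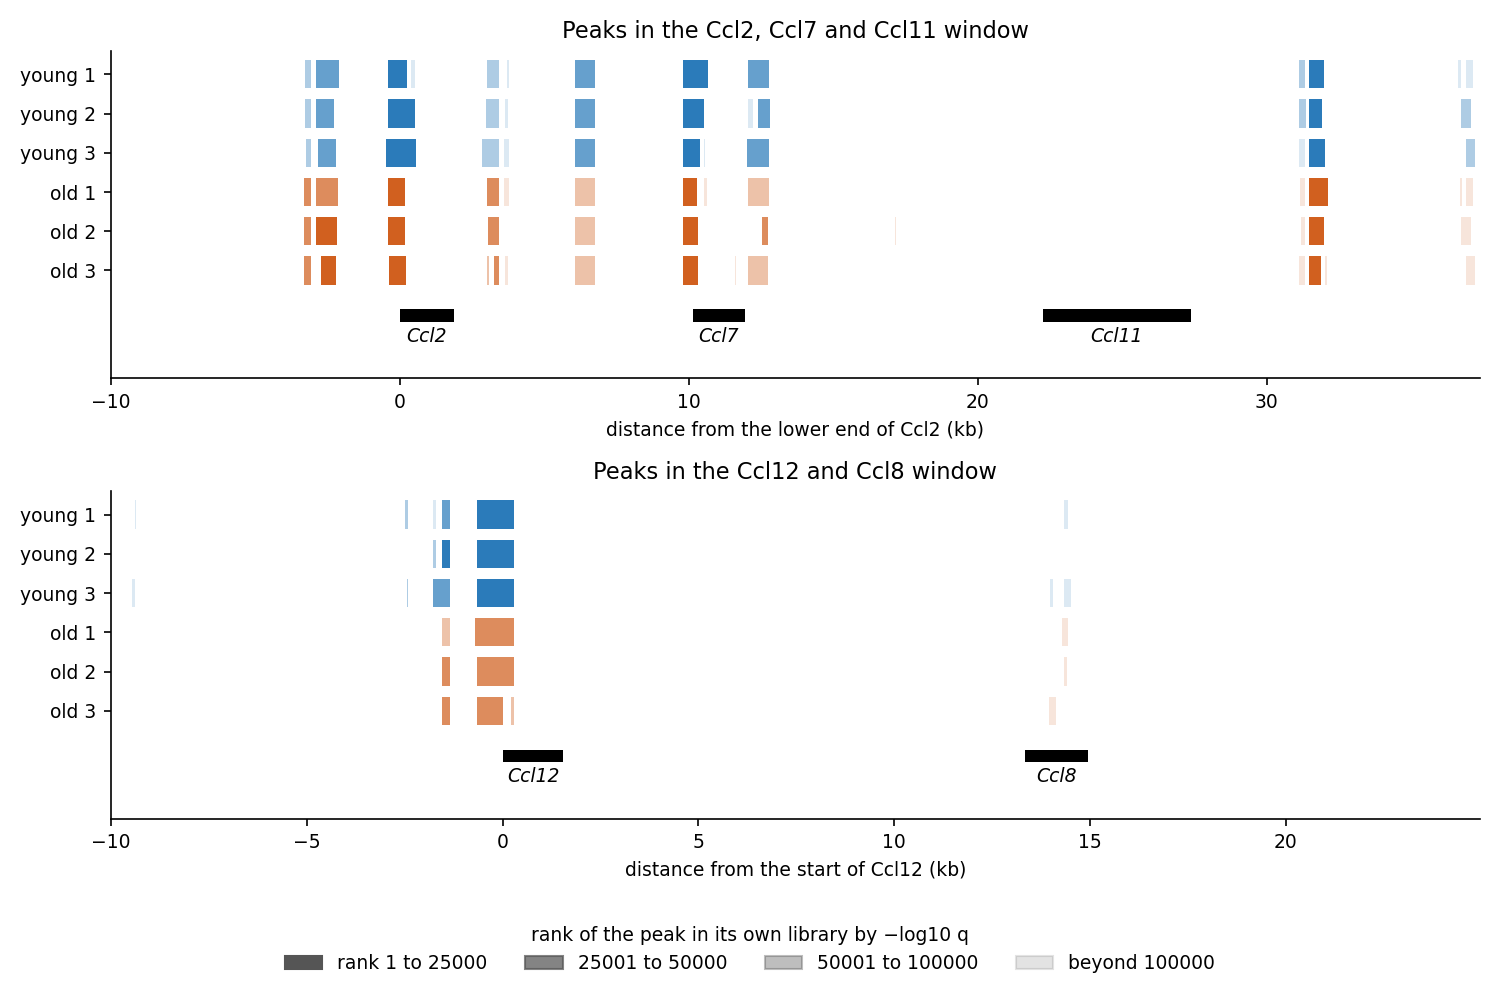
Peaks in the windows of Ccl2, Ccl7 and Ccl11 (top) and of Ccl12 and Ccl8 (bottom), by distance in kb from the lower end of Ccl2 or the start of Ccl12. Each line is a library (blue young, orange old), darker bars are peaks of better rank, and black bars are gene spans; peaks recur in the same places in all 6 libraries at Ccl2, Ccl7 and Ccl12, and none overlaps Ccl11.

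Peaks recurred at the same places in both ages. "Below" and "above" a gene stand here for lower and higher coordinates. In the first group, the best-ranked region lay over the lower end of Ccl2, which encodes a monocyte attractant acting through Ccr2. This region, chr11:82035091-82036123, ranked between 2152 and 5130 in the 6 libraries, with an authors' fold enrichment of 5.85, 5.01 and 5.21 in the young and 5.95, 6.43 and 5.81 in the old libraries. The region over the lower end of Ccl7, which encodes a related monocyte attractant, was chr11:82045388-82046228 and ranked between 7815 and 12883. At Ccl12, another Ccr2 ligand, the region over the promoter was chr11:82101147-82102140. Its rank was 17424, 14802 and 20031 in the young libraries and 31564, 40380 and 43680 in the old libraries, and these did not overlap. Its covered length was nevertheless similar, at 944, 937 and 942 bp in the young and 994, 923 and 732 bp in the old libraries.

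Ccl11, which encodes the eosinophil attractant eotaxin, and Ccl8, of the monocyte chemoattractant family, lacked a peak at either end. No peak touched the Ccl11 span in any library. The nearest strong region, chr11:82067043-82067694, lay 4088 bp above Ccl11 within Gm38913 and ranked between 4999 and 12167. In the Ccl8 span only short weak peaks were called, covering 96, 0 and 267 bp in the young and 140, 65 and 176 bp in the old libraries.

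**Figure D2:**
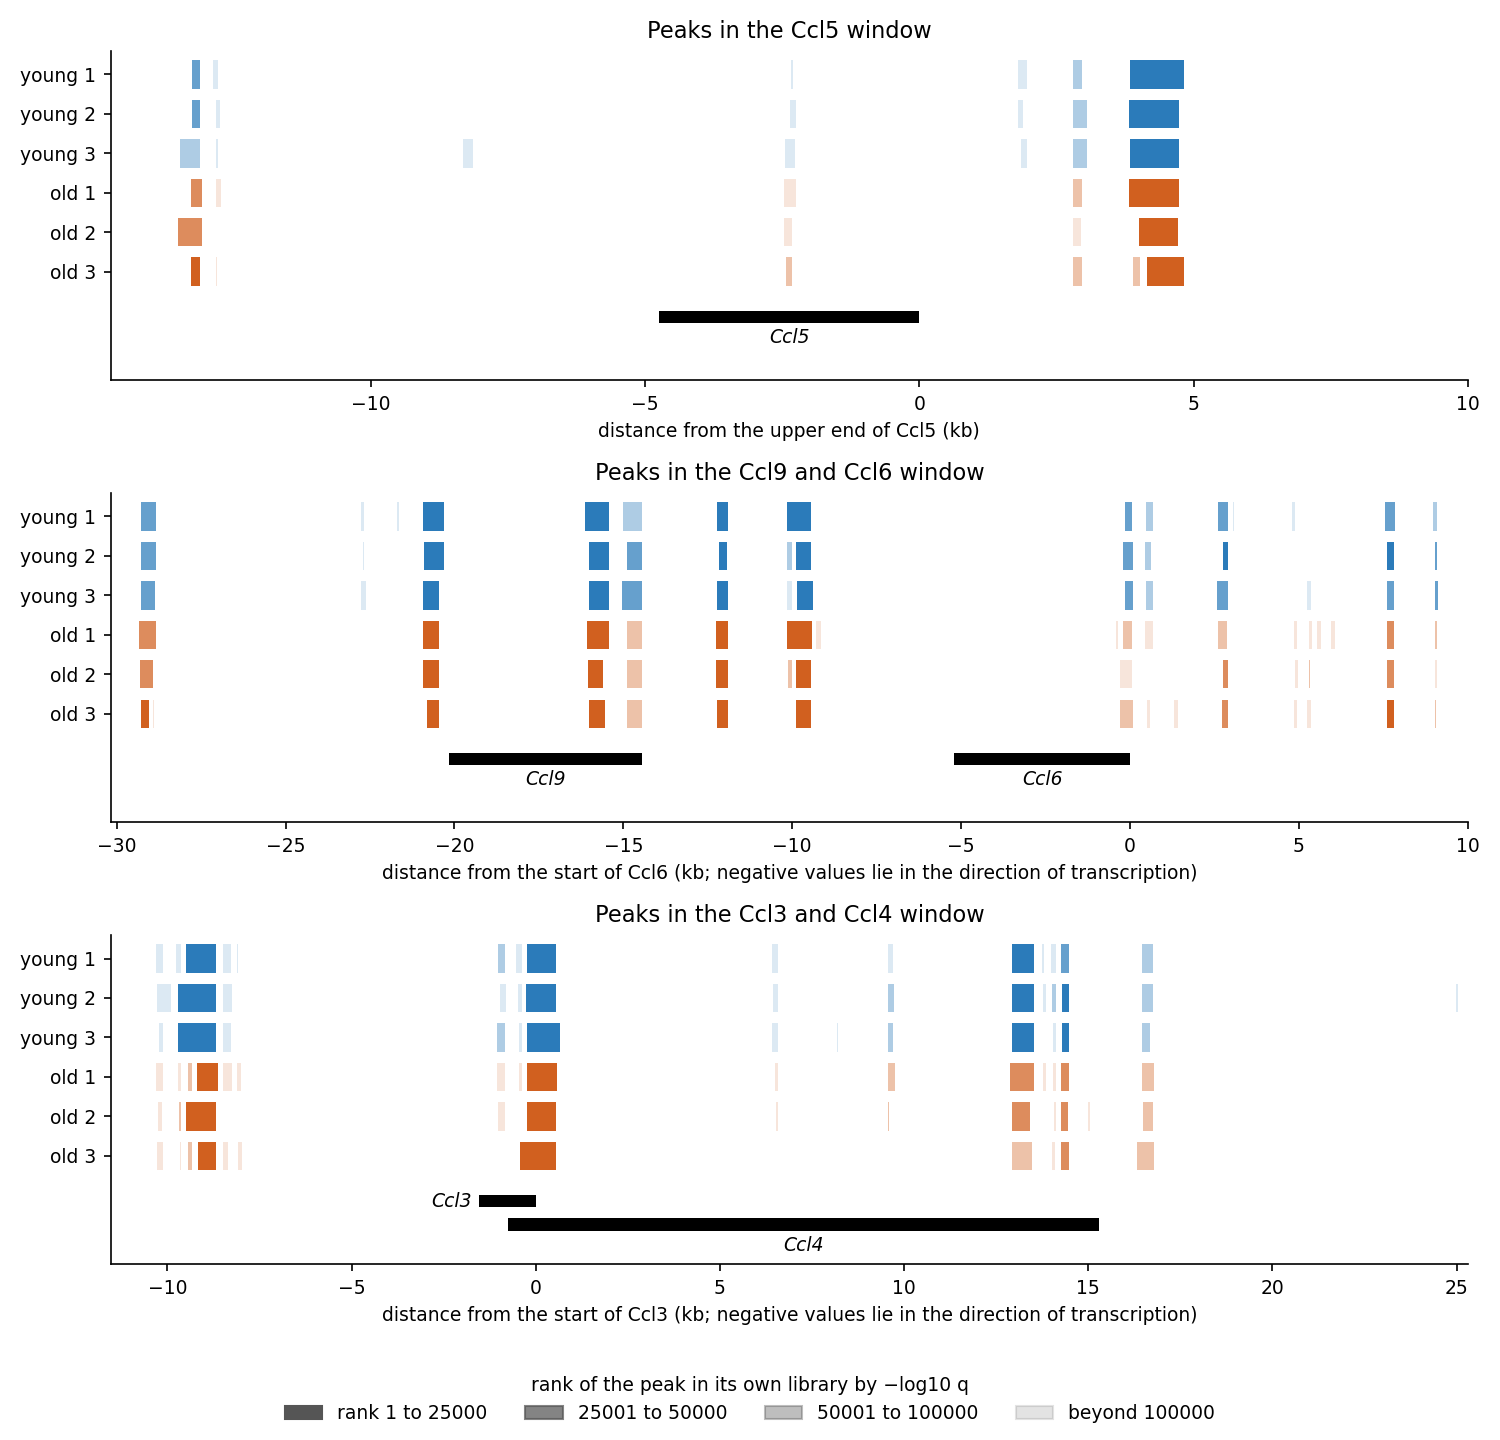
Peaks in the windows of Ccl5 (top), Ccl9 and Ccl6 (middle) and Ccl3 and Ccl4 (bottom), by distance in kb from the upper end of Ccl5 and from the starts of Ccl6 and Ccl3. Colours and shades are as in the map of the first group; the peaks at the Ccl3 start are dark in all 6 libraries, and those at the Ccl6 start are dark in the young libraries and pale in the old ones.

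In the second group, the peak over the start of Ccl3, which encodes an inflammatory chemokine induced in macrophages, ranked first in the young libraries. In the old ones it ranked behind a region of the Ccl5 window. In old libraries 2 and 3 it also ranked behind the best region between Ccl9 and Ccl6 (6236 and 4019). The region chr11:83648852-83650045 ranked 2785, 3472 and 3650 in the young libraries and 6664, 7627 and 7312 in the old libraries, with a fold enrichment of 6.59 to 7.74. The next best region of this window, chr11:83639611-83640753, lay 7090 bp below Ccl3 and ranked between 9069 and 11832, with overlap between the ages. At Ccl4, which encodes a related inflammatory chemokine, the region chr11:83662263-83662911, named after its values were seen, lay inside the gene span and ranked 17834, 19233 and 19951 in the young and 47336, 28665 and 54867 in the old libraries. In both regions every old library had a later rank than every young library. The lists differ in length, so these ranks describe each list and measure no change. How often ranks separate by age over all regions, as here and at Ccl12, was not counted.

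Ccl5, which encodes a T cell and monocyte attractant, had no peak at its ends. A weak region within the span, chr11:83528044-83528276, also named after its values were seen, covered 29, 123 and 178 bp in the young and 220, 154 and 107 bp in the old libraries. The strong region of this window, chr11:83534347-83535350, lay 3829 bp above Ccl5 in Gm32650 and ranked between 4367 and 4916 in all 6 libraries, the narrowest range of the regions named here. The next best, chr11:83516994-83517447, lay 8331 bp below Ccl5 in Gm32650 and Heatr9 and ranked 46023, 42937 and 74413 in the young and 27077, 32398 and 17443 in the old libraries. Ccl9 and Ccl6 encode myeloid chemokines of rodents that act through Ccr1. In Ccl9 the region inside the gene, chr11:83576956-83577673, ranked between 9725 and 13413, ahead of the region that touched the promoter, chr11:83578042-83578653, which ranked between 42784 and 93428. At the Ccl6 start the region chr11:83592784-83593182 ranked 40066, 35378 and 38768 in the young and 53240, 113787 and 84734 in the old libraries. The best region between both genes, chr11:83582936-83583694, lay 4192 bp below Ccl6 in E230016K23Rik and ranked between 4019 and 14241.

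To compare the ages, the peak-covered length was summed in base pairs for each gene locus, that is, the gene with 10 kb on each side, and scaled to an equal sum over all loci. The comparison was made on all deposited peaks and on the strongest 50000 peaks of each library, with limma across all loci that averaged 500 bp or more. Changes are on the scale of log2(scaled bp + 200), old minus young. Loci of neighbours overlap: the stretch between Ccl2 and Ccl7 counts for both, and the stretch above Ccl7 also for Ccl11.

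**Figure D3:**
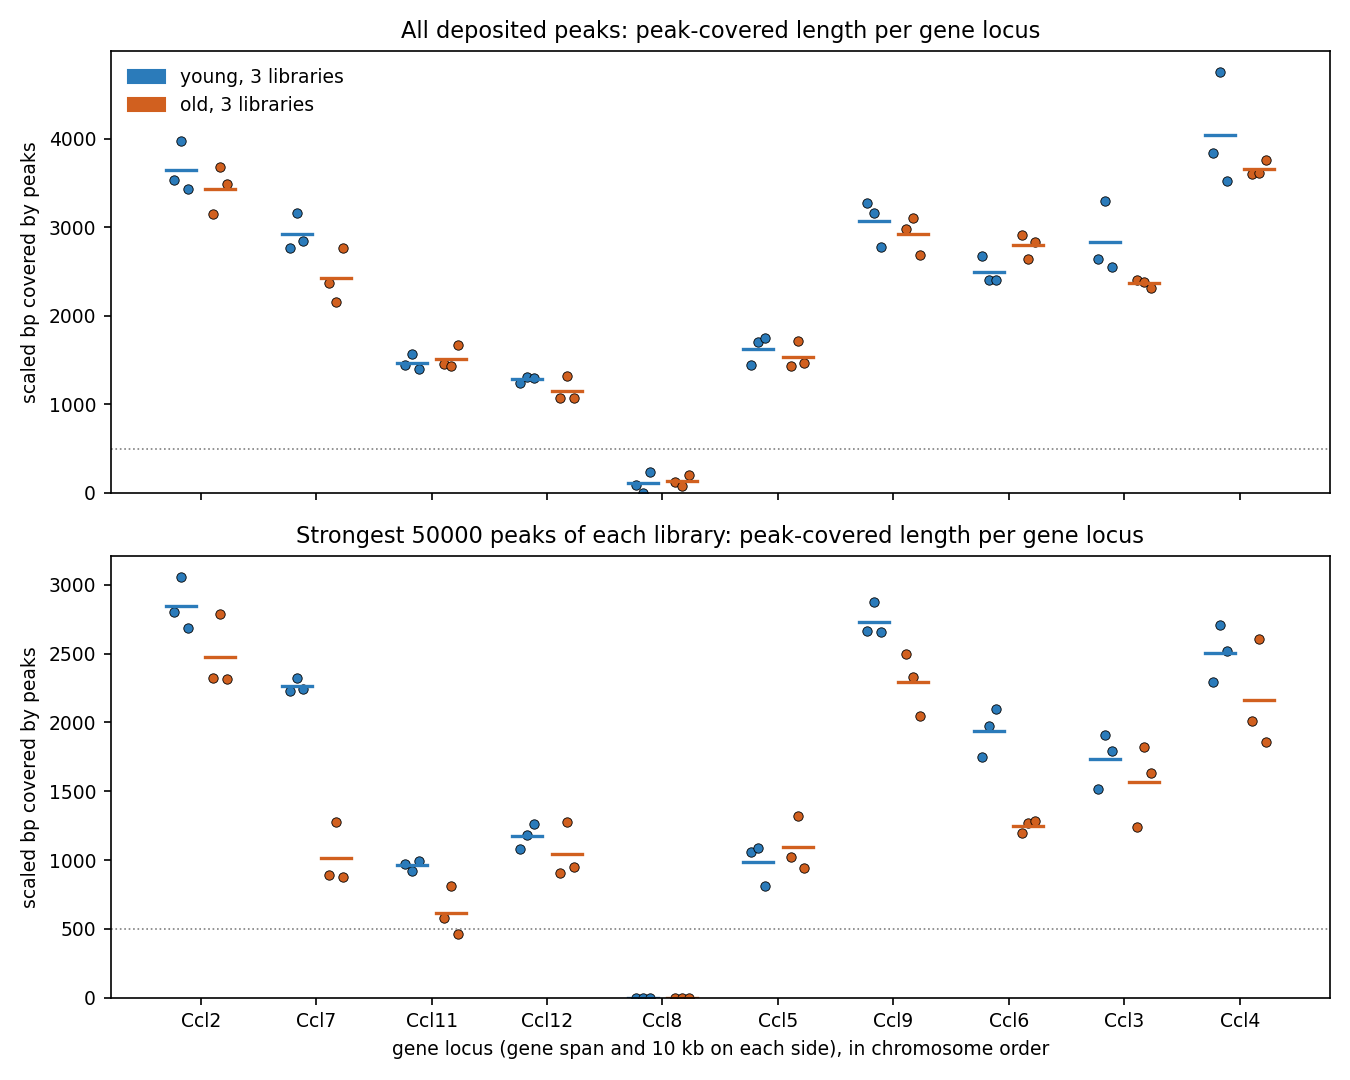
Scaled base pairs covered by peaks at each of the 10 chemokine loci, for all deposited peaks (top) and the strongest 50000 peaks of each library (bottom). Points are libraries, bars are group means and the dotted line is the 500 bp filter; at Ccl7 the young points (mean 2265) and old points (mean 1013) stand far apart in the bottom panel, and Ccl8 lies under the filter in both.

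Of the Ccr2 ligands, Ccl7 passed the test on the strongest 50000 peaks and not on all deposited peaks, and Ccl2 and Ccl12 passed on neither. On the strongest 50000 peaks, the Ccl7 locus was covered over 2227, 2324 and 2244 scaled bp in the young libraries and over 890, 1275 and 874 in the old libraries. The old libraries were all lower, and the locus was narrower in the old libraries by a log2 change of -1.04 (SE 0.14, adjusted p = 0.0219). A locus also loses length on the strongest peaks when a peak of unchanged length falls past rank 50000. This was seen for the peak between Ccl2 and Ccl7, which ranked past 50000 in every old library. In the full lists its length was 707, 695 and 714 bp in the young and 698, 679 and 700 bp in the old libraries. The peak above Ccl7 also ranked past 50000 in old libraries 1 and 3. In libraries of many cells, fewer cells with an open site and less accessibility in each cell cannot be told apart behind a lower place in the ranking. With all deposited peaks the same locus had 2770, 3163 and 2841 scaled bp in the young and 2369, 2160 and 2765 in the old libraries, again without overlap but by a small margin, and the log2 change of -0.25 (SE 0.10, adjusted p = 0.297) did not pass. The call on the strongest peaks held without old library 2 (adjusted p = 0.0425). It was lost without young library 1, 2 or 3 (adjusted p = 0.0633, 0.0658 and 0.0509) or old library 1 or 3 (0.074 and 0.0869), and among the strongest 40000 peaks (0.188). Among the strongest 60000 a smaller change of -0.56 passed by a narrow margin (adjusted p = 0.04997).

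The Ccl2 locus had 3531, 3970 and 3435 scaled bp in the young and 3143, 3680 and 3485 in the old libraries on all deposited peaks. The ages overlapped, with a log2 change of -0.08 (SE 0.09, adjusted p = 0.777), and on the strongest peaks the change was -0.19 (SE 0.10, adjusted p = 0.447). The Ccl12 locus was covered over 1282 ± 34.1 scaled bp in the young and 1151 ± 145 in the old libraries (mean ± SD, n = 3 each). Its changes of -0.14 on all peaks and -0.15 on the strongest peaks (adjusted p = 0.737 and 0.690) did not pass. Ccl8 averaged below the filter on all peaks and had 0 bp in all 6 libraries on the strongest peaks, so it was not tested. Ccl11 differed by 0.04 on all peaks (SE 0.12, adjusted p = 0.937). On the strongest peaks its 975, 921 and 993 scaled bp in the young exceeded 581, 809 and 467 in the old libraries, without overlap, but the change of -0.53 (SE 0.17, adjusted p = 0.204) did not pass. These lengths include part of the region 76 bp above Ccl7, and with a flank of 5 kb the Ccl11 change was 0.12.

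Of Ccl6 and Ccl9 in the second group, Ccl6 came closest to a call. Among the strongest peaks its locus was covered over 1745, 1977 and 2096 scaled bp in the young and 1194, 1270 and 1281 in the old libraries. These did not overlap, with a log2 change of -0.56 (SE 0.11, adjusted p = 0.0553). With all deposited peaks the order turned: the Ccl6 locus had 2671, 2405 and 2400 scaled bp in the young and 2911, 2635 and 2833 in the old libraries, a change of 0.15 (SE 0.09, adjusted p = 0.534). Ccl9 had 2661, 2876 and 2657 scaled bp in the young and 2496, 2332 and 2044 in the old libraries on the strongest peaks, without overlap (-0.24, SE 0.10, adjusted p = 0.309). On all peaks Ccl9 overlapped between the ages (-0.07, SE 0.09, adjusted p = 0.829).

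At Ccl3, Ccl4 and Ccl5 no change passed the test. The Ccl3 locus had 2637, 3295 and 2548 scaled bp in the young and 2400, 2381 and 2317 in the old libraries on all peaks. The old libraries lay below the young ones, but the change of -0.23 (SE 0.10, adjusted p = 0.353) did not pass, and on the strongest peaks the ages overlapped (-0.14, SE 0.15, adjusted p = 0.736). Ccl4 was covered over 3841, 4753 and 3526 scaled bp in the young and 3600, 3616 and 3761 in the old libraries (-0.13, SE 0.10, adjusted p = 0.659), and the change on the strongest peaks was -0.21 (SE 0.13, adjusted p = 0.532). Ccl5 was 1628 ± 163 scaled bp in the young and 1535 ± 152 in the old libraries on all peaks (-0.07, SE 0.12, adjusted p = 0.862). It was the only locus with a positive change on the strongest peaks, of 0.13 (SE 0.16, adjusted p = 0.780).

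**Figure D4:**
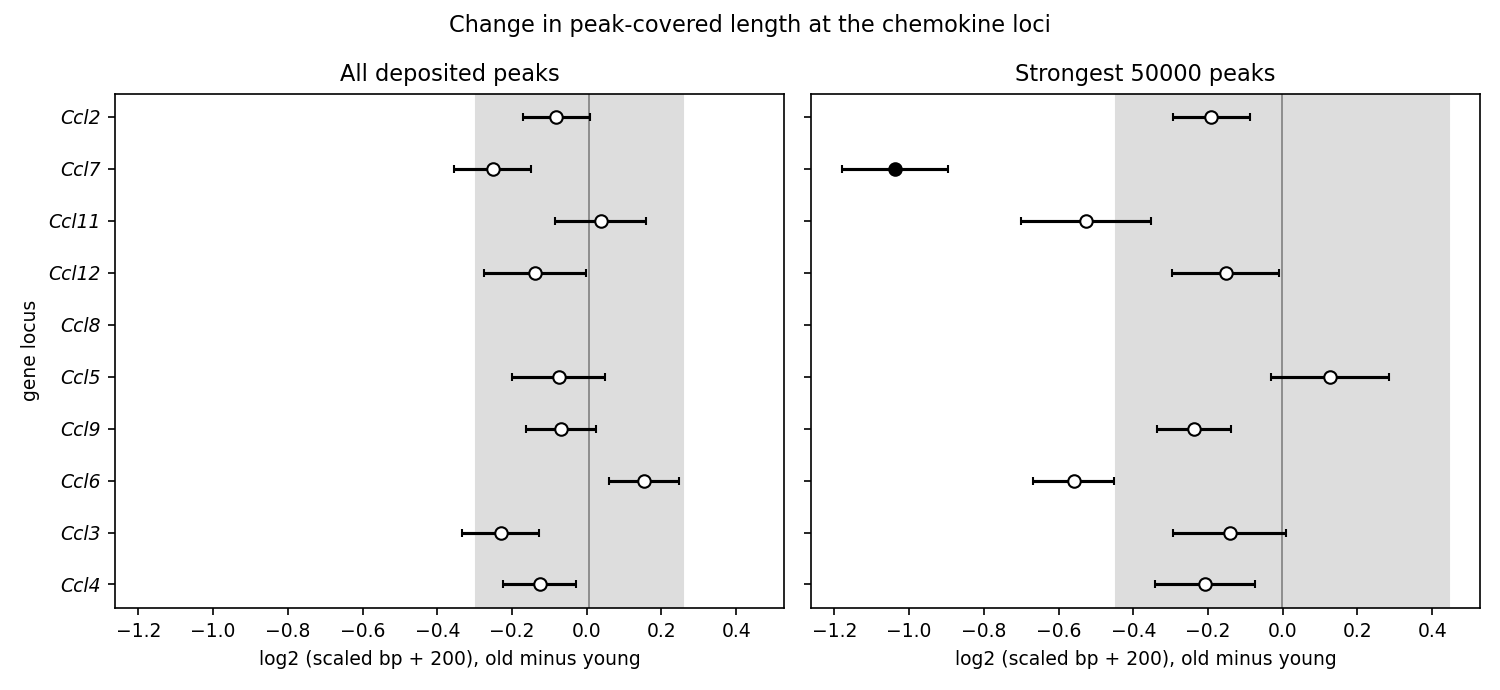
Change in peak-covered length, old minus young, on the log2(scaled bp + 200) scale at the chemokine loci that passed the filter, for all deposited peaks (left) and the strongest 50000 peaks (right). Points are estimates with their standard errors, a filled point passed the test, the grey band spans the 5th to the 95th percentile of all loci tested (-0.30 to 0.26 on the left, -0.45 to 0.45 on the right), and the grey line is their median; only Ccl7 on the right is filled.

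On all deposited peaks, 9 of the 10 loci passed the filter and limma called 0 of them, with 2 at an unadjusted p under 0.05 (Ccl7 and Ccl3). Over all 16939 loci tested, limma called 0.39% wider and 0.579% narrower in the old libraries, and 2163 had an unadjusted p under 0.05. The change was negative at 7 of the 9, with a median of -0.08 against 0.007 over all loci. The old libraries lay wholly below the young ones at 2 of the 9 (Ccl7 and Ccl3) and wholly above at 0, where 8.35% and 8.63% of all loci did so. On the strongest 50000 peaks, 1 of the 9 tested was called narrower and 0 wider, beside 0.438% narrower and 0.835% wider over 14377 loci. An unadjusted p under 0.05 was reached by 4 of the 9, beside 2132 of the 14377. The change was negative at 8 of the 9, with a median of -0.21 against -0.002 over all loci. The groups did not overlap at 4 of the 9 (Ccl7, Ccl11, Ccl6 and Ccl9), each with the old libraries below, and at 0 with the old libraries above, where 10.5% and 9.88% of all loci did so. Overlapping loci share peaks, so these counts do not rest on independent loci.

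Merging the peaks of all libraries placed the differences at single regions. On all deposited peaks, the windows held 63 regions, 33 of them in all 6 libraries. Of the 47 found in 3 or more libraries, 5 had an unadjusted p under 0.05, beside 29390 of all 198727 regions tested. limma called 0 of the 47, beside 0.189% wider and 0.242% narrower among the 198727. Those shares rest on 375 and 481 calls, which became 0 and 0 without any 1 of the 6 libraries or with the replicate block. Named after their values were seen, the 5 comprised the region over the lower end of Ccl2, a region 1338 bp below Ccl12, a weak region within Ccl4, and 2 weak regions called in all 3 young and no old library. Of these 2, the one 1806 bp above Ccl5 was covered over 157, 79 and 111 bp in the young libraries, and the one 2452 bp below Ccl9 over 91, 29 and 134 bp. Over all 198727 regions, 2.89% were called in all 3 young and no old library. The reverse held for 0 regions of the windows and 1.04% of all regions. The Ccl2 region was 791, 931 and 1033 bp long in the young and 581, 581 and 593 bp in the old libraries. It was shorter in every old library, but its change of -0.36 (SE 0.14, adjusted p = 0.279) did not pass.

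On the strongest 50000 peaks, the windows held 26 regions, 24 of them in 3 or more libraries. limma called 2 of the 24 wider and 3 narrower in the old libraries, where 4.44% and 3.78% of 50552 regions were called. Both of the wider ones flanked Ccl2. The region chr11:82032245-82032518, 3059 bp below Ccl2, was absent from the strongest peaks of all 3 young libraries and covered 274, 249 and 259 bp in the old ones (log2 change 1.24, SE 0.12, adjusted p = 0.0016). The region chr11:82038579-82039017, 1127 bp above Ccl2, had 0 bp in the young and 439, 370 and 178 bp in the old libraries (1.40, SE 0.21, adjusted p = 0.00978). The peak at the end of Ccl2 and the one 2106 bp below it were among the strongest 50000 in all 6 libraries.

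Of the narrower ones, 2 flanked Ccl7. The region chr11:82041635-82042348, in the interval between Ccl2 and Ccl7 and 3364 bp below Ccl7, covered 707, 695 and 714 bp in the young libraries and 0 bp in the old ones (-2.14, SE 0.12, adjusted p = 0.000772). The region chr11:82047601-82048405, 76 bp above Ccl7, covered 714, 446 and 751 bp in the young libraries and 0, 187 and 0 bp in the old ones (-1.65, SE 0.33, adjusted p = 0.0374). The remaining one was the Ccl6 start, chr11:83592878-83593182, with 207, 300 and 241 bp in the young and 0 bp in the old libraries (-1.14, SE 0.15, adjusted p = 0.00529). Where a group has 0 bp, the size of the log2 change is set by the 200 bp added before the logarithm. Apart from the region above Ccl7, the called regions were held by libraries of a single age. As 3 or more libraries were needed, they entered the test only through that age, and their p-values restate the rank limit. In the windows, 2 regions were held by all 3 young and no old library, and 2 by the reverse. Over all 50552 regions these shares were 3.39% and 4.31%.

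**Figure D5:**
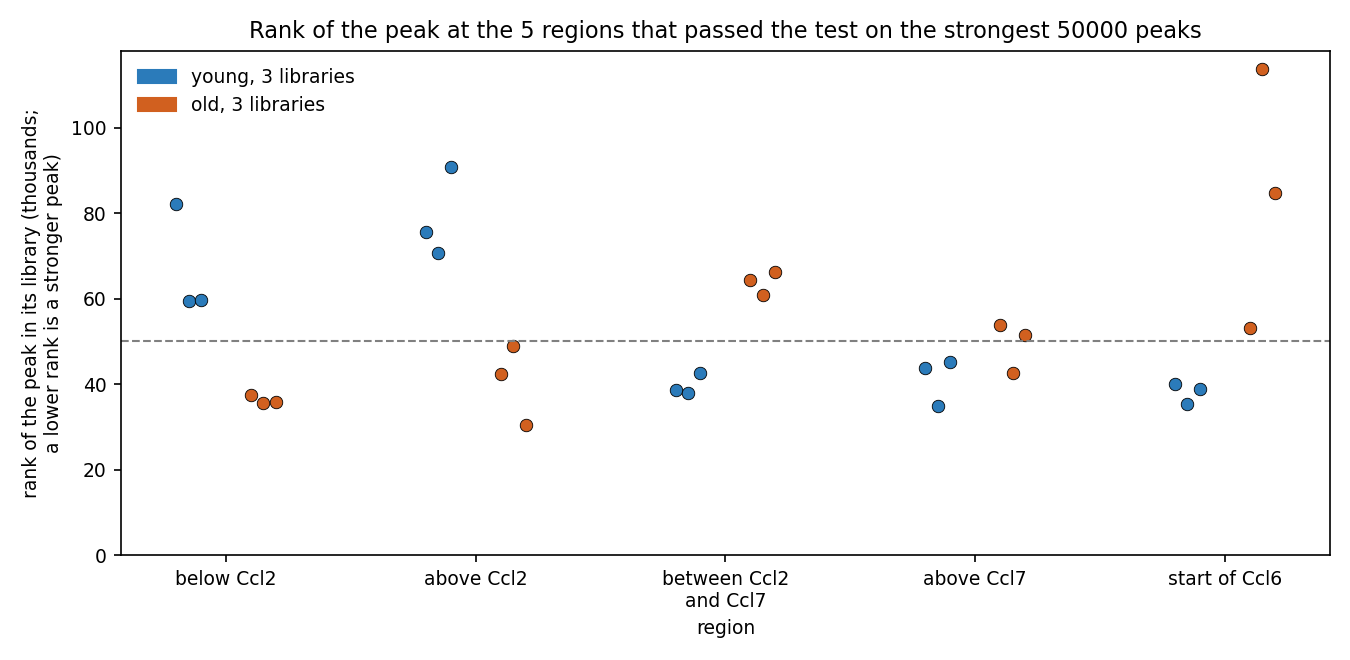
Rank within its own library of the best peak at each of the 5 regions that passed the test on the strongest 50000 peaks, in the 3 young (blue) and 3 old (orange) libraries; the dashed line is rank 50000. A peak was called in every library at all 5 regions, young ranks run from 59538 to 90685 at the regions flanking Ccl2, and old ranks run from 53240 to 113787 at the Ccl6 start.

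The plot of ranks gives the places behind these calls. A peak was called at each of the 5 regions in all 6 deposited lists, so the regions differed in rank and not in presence. Between Ccl2 and Ccl7 the peak ranked 38554, 37888 and 42536 in the young and 64369, 60822 and 66294 in the old libraries. In the full lists it was 707, 695 and 714 bp long in the young and 698, 679 and 700 bp in the old libraries, and the test gave a change of 0.13 (adjusted p = 0.696). At the Ccl6 start the change on all deposited peaks was 0.38 (adjusted p = 0.406), opposite in sign to that on the strongest peaks. The sign also turned above Ccl2, where the region of the full lists, chr11:82038414-82039017, had a change of -0.18 (adjusted p = 0.606). Above Ccl7 the young ranks were 43836, 34819 and 45212 and the old ranks were 53809, 42699 and 51534, close to the limit of 50000. Its call was lost without young library 1, 2 or 3 (adjusted p = 0.139, 0.0839 and 0.131) or old library 1 or 3 (0.116 and 0.122), with the replicate block (0.153) and with 50 bp added in place of 200 bp (0.106). The call of the region above Ccl2 was lost without young library 1 (adjusted p = 0.0505).

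The regions called moved with the limit. Among the strongest 25000 peaks, the called regions were those over the Ccl12 promoter (-2.48, SE 0.12, adjusted p = 0.00035) and within Ccl4 (-1.98, SE 0.12, adjusted p = 0.00035), both narrower in the old libraries. Among the strongest 100000 only a region 435 bp above Ccl6, chr11:83593522-83593780, was called, also narrower (-1.01, SE 0.13, adjusted p = 0.00709). The strongest 40000 called the region below Ccl2 again (1.24), the region 8331 bp below Ccl5 as wider (1.25, adjusted p = 0.0467) and a region 2588 bp above Ccl6, chr11:83595675-83596002, as narrower (-1.16, adjusted p = 0.00479). The strongest 60000 called 2 of the 5 again, the one above Ccl2 as wider (1.40) and the one between Ccl2 and Ccl7 as narrower (-2.14). In the full lists the Ccl12 and Ccl4 regions had changes of 0.07 and 0.04 (adjusted p = 0.834 and 0.886). Regions held at a limit by a single age again entered the test only through that age. These limits were added after the data had been seen.

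Summed over each window, the covered length separated the ages only on the strongest peaks. In the Ccl2, Ccl7 and Ccl11 window the young libraries had 3956, 3978 and 3891 scaled bp and the old libraries 2904, 3596 and 2779. In the Ccl9 and Ccl6 window they had 3410, 3661 and 3442 against 2702, 2718 and 2452. In both windows every old library was lower, with mean differences of -849 and -880 scaled bp (two-sided exact permutation p = 0.1 each, the smallest possible, so none of the 6 comparisons on each kind of list could pass the threshold). Over all 5 windows the sum was 12108 ± 443 in the young and 10016 ± 1334 in the old libraries (mean ± SD, n = 3 each; exact permutation p = 0.1). The other 3 windows overlapped between the ages, and on all deposited peaks so did each of the 5 windows and their sum (16504 ± 1039 against 15767 ± 331; exact permutation p = 0.4).

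The receptors of these ligands gave 0 calls in 7 tested of 8 listed on all deposited peaks, with 2 higher and 5 lower. The smallest p was that of Ccr3, the receptor of eotaxin on eosinophils, with 2115 ± 212 scaled bp in the young and 1746 ± 73.2 in the old libraries (-0.25, SE 0.11, adjusted p = 0.348). Among the strongest peaks Ccr3 was 1215 ± 127 against 620 ± 222, without overlap, and also missed the threshold (-0.82, SE 0.20, adjusted p = 0.105). In the other direction the smallest p values belonged to Ackr2, a scavenging receptor, on all peaks (0.13, adjusted p = 0.629) and Ccrl2 on the strongest peaks (0.11, adjusted p = 0.726), where 4 were tested and 0 called. Of 11 CC chemokine genes elsewhere, 9 were tested on all peaks with 6 higher, 3 lower and 0 called, and 6 on the strongest peaks with 1 higher, 5 lower and 0 called. Ccl27a, a skin chemokine gene on chromosome 4, had the smallest p among the higher ones on all peaks (0.38, SE 0.15, adjusted p = 0.271) and Ccl24 among the lower (-0.06, adjusted p = 0.893). With the strongest peaks these were Ccl27a (0.70, adjusted p = 0.261) and Ccl26 (-0.50, adjusted p = 0.203).

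The 22 listed regulators of inflammatory chemokine genes were all tested on both kinds of list, and 0 were called. On all deposited peaks 16 were higher and 6 lower, with a median of 0.09. Fosl2, an AP-1 subunit, had 3712 ± 93.4 scaled bp in the young and 4523 ± 176 in the old libraries (0.27, SE 0.08, adjusted p = 0.120). Nfkb1, an NF-kB subunit, had 10648 ± 263 against 9386 ± 658 (-0.18, SE 0.06, adjusted p = 0.219). On the strongest peaks 13 were higher and 9 lower. The smallest p among the higher ones was that of Fosl2 (0.39, SE 0.13, adjusted p = 0.2008), and the smallest p among the lower ones was that of Tnf, which encodes a cytokine that induces these chemokines (-0.30, SE 0.12, adjusted p = 0.319).

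Peaks at marker loci of several cell types were also described. All 8 macrophage marker loci, among them Adgre1 (F4/80) and Siglec1 (CD169), were covered in all 6 libraries. In the full lists so were 6 of 6 B cell, 6 of 6 stromal, 6 of 7 neutrophil, 5 of 6 T cell and 3 of 5 erythroid loci. Coverage alone therefore cannot check the labelled cell type. The summed length of the macrophage loci on the strongest peaks was 18.3 to 19.1 scaled kb in the young and 15.3 to 15.6 in the old libraries, without overlap. Mertk, a receptor for apoptotic cells, was called narrower in the old libraries (-0.53, SE 0.09, adjusted p = 0.0350), 1 of 7 tested, where 0.438% of all loci were called narrower. With the replicate block no locus was called on the strongest peaks, Mertk included. In the full lists the macrophage sum was 32.6 to 33.4 scaled kb in the young and 30.99 to 32.9 in the old libraries, and 0 of 8 were called. Among the strongest peaks, B cell marker loci summed to 6.92 to 8.29 scaled kb in the young and 8.37 to 9.09 in the old libraries, and stromal marker loci to 7.69 to 8.41 and 9.08 to 10.1. With all deposited peaks both sums overlapped between the ages (23.1 to 29.3 against 26.9 to 29.1 for B cell and 24.5 to 27.4 against 25.1 to 27.04 for stromal loci). Neither list had a called locus, and 6 of 6 B cell and 5 of 6 stromal loci had a strong peak in every library. Within the B cell list, Ebf1 was the 1 tested locus with a positive change (4308 against 6264 scaled bp on average, 0.52, adjusted p = 0.0775), and the other 3 tested were negative. Within the stromal list, Pdgfra averaged 514 scaled bp in the young and 1422 in the old libraries (1.48, adjusted p = 0.263) and Lepr, under the filter, 105 and 650.1, while Col1a2 and Cxcl12 had negative changes (-0.09 and -0.08) and Pdgfrb one of 0.05. The T cell, neutrophil and erythroid sums overlapped between the ages. On these peaks Cd3e, Cd8a, Ly6g, Retnlg, Gata1 and Hbb-bs were at 0 in all 6 libraries. However, 4 of 6 T cell, 4 of 7 neutrophil and 3 of 5 erythroid loci had a strong peak in every library. In the full lists the neutrophil sum was 10.4 to 11.1 scaled kb in the young and 10.2 to 10.3 in the old libraries, and 0 of 5 were called. The part of these shifts in the Ccl7 and Ccl6 differences was not tested.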

How the data were processed

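Accessible chromatin was profiled by Omni-ATAC in 3 young and 3 old libraries. Per the submitters' processing notes, the tools were MACS2 2.1.0.20140616, Bowtie2 2.2.6, cutadapt 1.14, Trim Galore 0.4.4, Picard and SAMtools, with the build mm10. For duplicate removal and read shifting, no setting was given in those sources. The authors deposited 1 broad peak list per library, with a score, a fold enrichment (ratio over background) and −log10 p and −log10 q values per peak. No read counts were used and depth is unknown.

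Base pairs covered by peaks were summed over each protein-coding gene with 10 kb on each side (RefSeq spans) and scaled to equal sums over loci. log2(scaled bp + 200) was fitted with limma 3.58.1 (trend, robust) in R 4.3.3 over all loci averaging 500 bp or more, and p-values were adjusted by Benjamini-Hochberg at 0.05. Peaks overlapping by 1 bp were merged into regions, tested where 3 or more libraries held them. The strongest 50000 peaks of each library, by −log10 q, were analysed in the same way. Windows were compared by exact permutation, where the smallest p is 0.1. Python 3.11.15, numpy 2.4.6, pandas 2.3.3, scipy 1.17.1 and matplotlib 3.10.9 were used, and the fits were tested on simulated data. The simulation drew normal noise on the log2 scale and did not imitate peaks lost at the rank limit. All 10 chemokine genes are reported, with the regions at their ends, the 2 best-ranked regions of each window and any called region, and of the receptor, other chemokine and regulator lists the locus with the smallest p in each direction; marker lists are given by sums, with loci chosen after their values were seen. The members and lists were chosen with earlier results of these data known. Alternatives varied the peak list, scaling, flank, added bp, filter, merging and libraries.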

Additional observations from a re-analysis of the deposited data

How the results depend on the processing

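The locus call at Ccl7 among the strongest 50000 peaks became 0 calls with no scaling, with the gene span only, with the replicate block and among the strongest 25000, 40000 or 100000 peaks, and leaving out 1 library gave 0 to 1 calls. The replicate block gave Ccl7 an adjusted p of 0.057. Same-numbered libraries correlated at 0.143, 0.136 and -0.162 on all peaks and at 0.0437, 0.0516 and 0.0296 on the strongest. Libraries of unlike number ran from -0.326 to 0.266 on all peaks and from -0.0654 to 0.0276 on the strongest. With 3 libraries of each age, these values cannot show whether the numbers pair the libraries. The 5 called regions became 2 among the strongest 25000, 3 among 40000, 2 among 60000 and 1 among 100000 peaks, and 3 to 5 without 1 library. With the block or 50 bp added, 2 regions were called wider and 2 narrower, without the one above Ccl7. The 40000 and 60000 limits for loci, and all 4 limits for regions, were added after the data had been seen.

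Within each kind of list, apart from the region between Ccl2 and Ccl7, the signs that turned belonged to changes that had not passed the test. Between the strongest and all deposited peaks, the called regions above Ccl2, between Ccl2 and Ccl7 and at the Ccl6 start turned. On all deposited peaks, Ccl11 became -0.11 with no scaling, -0.20 at a −log10 q of 2 or more and -0.0072 with the total covered length as a covariate, and ran from -0.025 to 0.077 without 1 library. Ccl8 became -0.31 at a −log10 q of 2 or more and ran from -0.10 to 0.45 without 1 library. Ccl5 became 0.056 at 2 or more and 0.037 at 5 or more, and at 5 or more Ccl4 became 0.11 and Ccl6 -0.42. On the strongest peaks, a flank of 5 kb gave Ccl11 0.12, Ccl3 0.11 and Ccl5 -0.13. The strongest 25000 gave Ccl2 0.047, Ccl11 0.12, Ccl5 -0.028, Ccl6 0.061 and Ccl9 0.030, 40000 gave Ccl2 0.022 and Ccl9 0.028, 60000 gave Ccl4 0.00070, and 100000 gave Ccl5 -0.0054 and the region between Ccl2 and Ccl7 0.090. The region above Ccl7 ran from -0.53 to 0.077 on all peaks without 1 library. The window difference of Ccl9 and Ccl6 on all peaks became -375 unscaled bp with no scaling, -20.6 scaled bp with 5 kb and -668 at a −log10 q of 5 or more, and ran from -108 to 209 without 1 library. That of Ccl5 became 75.3 at 2 or more and 56.7 at 5 or more, that of Ccl12 and Ccl8 8.93 and that of Ccl3 and Ccl4 247 at 5 or more. On the strongest peaks the Ccl5 window became -89.4 with 5 kb and ran from -1.32 to 192 without 1 library. The difference in the number of deposited peaks ran from -5.17 to 0.333 without 1 library. The cause was not tested. Over all loci on all peaks, the 98 narrower calls ran from 4 with no filter to 252 without old library 1, with 170 under the replicate block, 14 without young library 1, 22 without young library 3 and 30 without old library 3. The 66 wider calls ran from 0 with no filter to 95 under the block. The 375 wider and 481 narrower regions on all peaks became 7 and 7 with 50 bp added and 0 and 0 under the block. On the strongest peaks the block left 0 wider and 0 narrower calls among the loci. Among the regions it left 2052 wider and 1432 narrower calls, from 2245 and 1910. Peak lists without read counts limit what a difference in length or rank can show.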
